A study of Rattus norvegicus with 9 samples.

Results

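Ndfip1 and Ndfip2 are small membrane proteins of the endosome and Golgi that recruit and activate ubiquitin ligases of the Nedd4 family. The 2 genes were followed here through their Agilent catalogue probes, A_44_P166216 for Ndfip1 and A_44_P1047638 for Ndfip2, out of 29 protein-coding genes with a named catalogue probe and 38804 probes in all. The probes were found by matching the array's accessions to rat RefSeq, a step that used no measured value. The choice of the 2 genes was made with earlier results of these data known. Each probe sits in 10 spots on every array, so each gene has 90 spot readings over the 9 arrays.

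As background, a Nedd4-family ligase has WW domains that bind short proline-rich PPxY motifs, a HECT domain that passes ubiquitin to the substrate, and a closed resting form. Ndfip1 and Ndfip2 carry PPxY motifs, open the ligase and bring it to membranes. Through this route they promote ubiquitination of membrane and signalling proteins, among them the iron and metal transporter DMT1 and, in T cells, the transcription factor JunB. In lung epithelium the family is best known for Nedd4l, which limits the sodium channel ENaC.

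The study profiled RNA of whole lung from male Wistar rats, given as 6 to 8 weeks old, in 3 groups of 3 arrays. The CS group breathed cigarette smoke and the PM2.5 group fine particulate matter for 90 days, and the labels call each a COPD (chronic obstructive pulmonary disease) model. The control group inhaled NS, which the labels do not spell out, for 90 days. The labels give archiving after 90, 91 and 92 days for replicates 1, 2 and 3 of each exposed group and after 90 days for every control rat, and they name no genetic change. They call the 3 arrays of a group biological replicates and say nothing further of the animals, so p-values measure the spread between these arrays. In whole lung, fewer cells of a type and less RNA per cell cannot be told apart, and of 35 lung cell type markers looked for, 0 have a named probe, so the tissue label could not be checked against them.

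The arrays differed in brightness before any comparison. The 75th percentile of spot signal was 325 to 338 on control arrays, 186 to 209 on CS arrays and 159 to 257 on PM2.5 arrays, in intensity units of the scanner. The file headers place all 3 control arrays in a scan of their own. The exposed arrays fell into 3 scans of a different day, 1 of them holding CS arrays 2 and 3 with PM2.5 arrays 1 and 2. Scan, scan day and control status therefore cannot be told apart, which holds for every comparison with control below. The median of the array's control spots for the adenoviral E1A sequence was −3.35 to −3.13 on control and −2.93 to −1.99 on exposed arrays (log2, with the 75th percentile at 0). That percentile was itself lower on exposed arrays, so these values carry the brightness difference. Before it was subtracted, the E1A values of control and exposed arrays overlapped. The part of these control spots in the results, like that of brightness, was not tested.

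The sequence just upstream of each gene is shown as a description. Promoters are where smoke-responsive factors such as the aryl hydrocarbon receptor and Nrf2 can act, and whether they did so here was not tested. Each run holds the 250 bases before the transcript start in RefSeq's GRCr8 table, 5′ to 3′ on the plus strand, at chr18:30516775-30517024 for Ndfip1 and chr15:88446682-88446931 for Ndfip2. Capitals mark matches to the motifs searched on both strands.
Ndfip1: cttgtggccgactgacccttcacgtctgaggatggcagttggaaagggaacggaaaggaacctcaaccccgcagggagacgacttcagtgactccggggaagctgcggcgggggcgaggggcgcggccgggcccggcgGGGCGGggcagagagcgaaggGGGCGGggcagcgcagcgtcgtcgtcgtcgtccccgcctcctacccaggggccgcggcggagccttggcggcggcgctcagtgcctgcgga
Ndfip2: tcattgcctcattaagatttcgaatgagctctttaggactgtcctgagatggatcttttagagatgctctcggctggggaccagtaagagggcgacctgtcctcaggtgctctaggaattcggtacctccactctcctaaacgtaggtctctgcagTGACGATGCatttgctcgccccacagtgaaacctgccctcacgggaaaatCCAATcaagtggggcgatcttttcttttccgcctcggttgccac

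The windows differ in composition. The Ndfip1 window was 72.8% G or C with 31 CpG pairs, above 94.7% of the 33469 windows of this length in GC content, while the Ndfip2 window was 51.6% G or C with 11 CpG pairs. The median window was 51.2% G or C with 5 CpG pairs, and 66.4% of windows held fewer CpG pairs than that of Ndfip2. In the Ndfip1 window the GC box GGGCGG matched 2 times, starting 112 and 91 bases before the start, a motif that 30.5% of all windows hold. In the Ndfip2 window the antioxidant core TGACNNNGC matched once, 94 bases before the start (10.1% of windows), and CCAAT matched once, 44 bases before it (34.0% of windows). The aryl hydrocarbon receptor core GCGTG (25.9% of windows) and TATAAA (12.9%) matched in neither window. No motif of the set was shared by the 2 windows, and the matches overlap with no other match. These are letter matches only, and no binding was measured.

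Ndfip1 was lower in exposed than in control lungs. Its level, the mean log2 signal of its spots minus the array's 75th percentile, was 3.92, 3.89 and 3.88 on control arrays 1, 2 and 3. It was 3.41, 3.37 and 3.53 on the CS arrays and 3.67, 3.32 and 3.50 on the PM2.5 arrays. Every exposed array lay below every control array, and the CS and PM2.5 arrays overlapped. The mean was 3.90 ± 0.02 in control lungs, 3.44 ± 0.08 in CS lungs and 3.50 ± 0.18 in PM2.5 lungs (SD, n = 3 each). Control stood first, and CS and PM2.5 did not differ beyond their spread.

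Ndfip2 followed the same order. Its level was 3.20, 3.20 and 3.07 on control arrays 1, 2 and 3. The CS arrays gave 2.68, 2.54 and 2.68 and the PM2.5 arrays 2.92, 2.32 and 2.68. Again every exposed array lay below every control array. The widest group was PM2.5, with PM2.5 1 the highest and PM2.5 2 the lowest of the 6 exposed arrays for both genes. The mean was 3.16 ± 0.07 in control lungs, 2.63 ± 0.08 in CS lungs and 2.64 ± 0.30 in PM2.5 lungs (SD, n = 3 each).

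**Figure D1:**
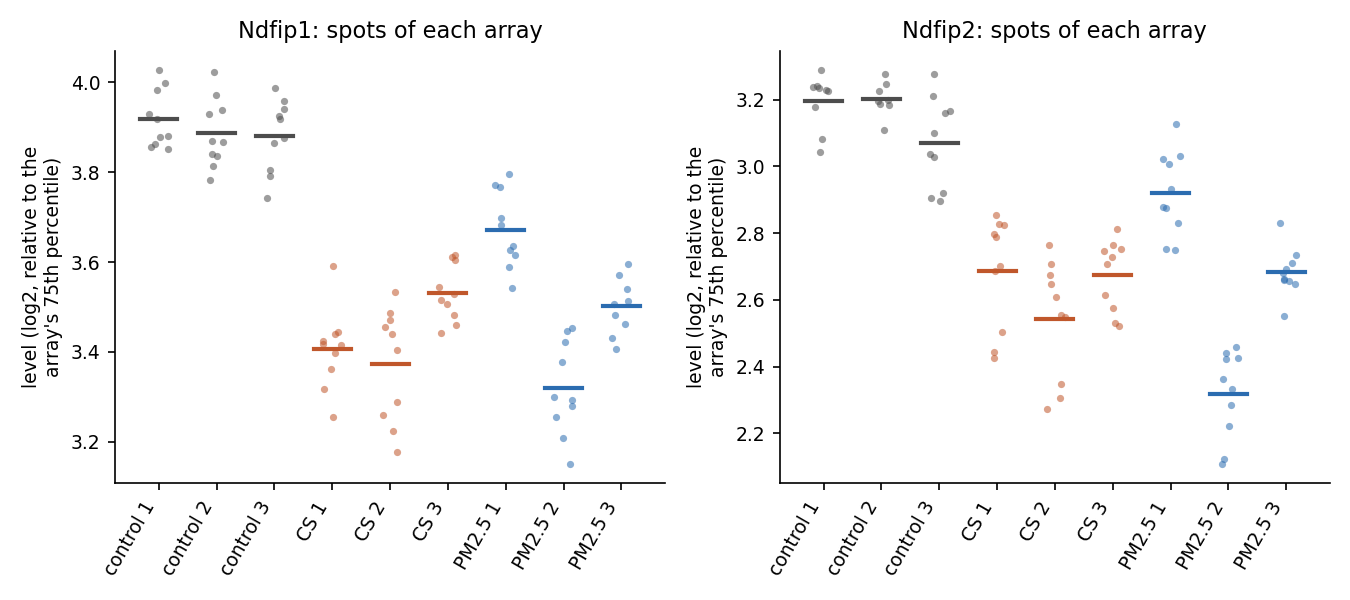
Level of Ndfip1 (left) and Ndfip2 (right) on each of the 9 arrays, in log2 units relative to the array's 75th percentile; points are single spots and bars are array means. The bars of all 6 exposed arrays lie below those of the 3 control arrays, and PM2.5 1 is the highest exposed array in both panels.

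These readings were far from the limits of the scan. All 90 spots of each gene were well above background and 0 were saturated. The median Ndfip1 spot was 151 to 384 times its local background across arrays and the median Ndfip2 spot 71.8 to 230 times. The scanner software marked 1 Ndfip1 spot and 3 Ndfip2 spots as outliers, which were left out. The spots of a gene on 1 array had an SD of 0.06 to 0.12 log2 units for Ndfip1 and 0.05 to 0.18 for Ndfip2, which puts the standard error of an array's mean at 0.02 to 0.04 and 0.02 to 0.06. Spots are repeats of 1 RNA sample, so they show the reading error of an array and not the spread between rats.

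Single spots overlapped between groups, unlike the array means. Of 59 exposed Ndfip1 spots, 56 were below the lowest of the 30 control spots (3.74), and of 60 exposed Ndfip2 spots, 55 were below the lowest of 27 control spots (2.90). The highest exposed spot of each gene, 3.80 and 3.13, was on a PM2.5 array, and the highest CS spots were 3.62 and 2.85. Of the control spots, 27 of 30 for Ndfip1 and 18 of 27 for Ndfip2 lay above the highest exposed spot. Spot positions were also compared singly, over those read on every array of the 2 groups compared. Ndfip1 was lower in CS at 10 of 10 positions (log2 change −0.60 to −0.35) and lower in PM2.5 at 9 of 9 (−0.42 to −0.34). Ndfip2 was lower at 8 of 8 positions in CS (−0.59 to −0.41) and at 8 of 8 in PM2.5 (−0.57 to −0.45).

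The first comparison asked whether the adaptors differed between smoke-exposed and control lungs. Ndfip1 fell by 0.46 on the log2 scale (SE 0.12, 95% interval −0.73 to −0.18, adjusted p = 0.0170), to 72.8% of control. Ndfip2 fell by 0.52 (SE 0.16, 95% interval −0.87 to −0.17, adjusted p = 0.0254), to 69.7% of control. With the scan as a random block neither passed (limma adjusted p = 0.150 and 0.199), nor did either without control 1, 2 or 3. The p-values are from limma, fitted on all 37643 probes tested and adjusted over them by the Benjamini-Hochberg method. With 3 against 3 arrays an exact two-sided permutation test gave p = 0.10 for each gene, the smallest that this design allows. So 2 of the 2 genes were called lower, in a comparison where 8.48% of all probes were called lower and 47.5% were called in either direction. Of all probes 39.0% were called higher, and this split depended on the scaling: 12.8% were called lower and 11.8% higher after quantile normalization, and 16.5% lower and 7.65% higher after centring on the median. Arrays that did not overlap, with CS lower, were found for both genes and for 13.0% of all probes.

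In the comparison of PM2.5-exposed with control lungs, Ndfip1 fell by 0.40 (SE 0.12, 95% interval −0.67 to −0.12, limma adjusted p = 0.0223), to 75.9% of control. Ndfip2 fell by 0.52 (SE 0.16, 95% interval −0.87 to −0.16, adjusted p = 0.0213), to 69.9% of control. With the scan as a random block neither passed (limma adjusted p = 0.130 and 0.146), and neither passed without PM2.5 2 (adjusted p = 0.0634 and 0.0531). The exact permutation p was again 0.10, the smallest possible. The background was 9.84% of probes called lower and 56.9% called in either direction. It was 15.2% lower and 14.5% higher after quantile normalization, and 20.6% lower and 12.7% higher after centring on the median. Of all probes, 13.1% of probes had PM2.5 arrays all below control arrays, as both genes did. Both comparisons use the same 3 control arrays, so they are not independent of each other.

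With the 6 exposed arrays set against the 3 controls, the mean change was −0.43 for Ndfip1 (SE 0.11, limma adjusted p = 0.00842) and −0.52 for Ndfip2 (SE 0.14, limma adjusted p = 0.0105), with 6 of 6 exposed arrays lower for each. With the scan as a random block neither passed (limma adjusted p = 0.114 and 0.142). The exact permutation test gave p = 0.0238 for each gene, the smallest that 6 against 3 arrays can give. Of all probes, 62.6% were called in this comparison, 9.92% were called lower and 8.84% had all exposed arrays below all controls.

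How far the fall goes depends on the scale. Before scaling, the mean Ndfip1 signal of CS arrays was 43.9% and of PM2.5 arrays 43.8% of control, and that of Ndfip2 42.0% and 40.4%. The 75th percentile itself was 60.3% of control on CS arrays and 57.7% on PM2.5 arrays, and dividing by it gave the values above. After that scaling most probes shifted upwards, by a median of 0.44 in CS and 0.50 in PM2.5, so the change minus that of the median probe was −0.90 in each for Ndfip1, and −0.97 and −1.02 for Ndfip2. With quantile normalization, whose median shift was 0.06 in CS and 0.07 in PM2.5, the changes were −0.56 and −0.49 for Ndfip1 and −0.63 and −0.59 for Ndfip2. In the values of the authors' normalized table they were −0.54 and −0.47 for Ndfip1 and −0.60 and −0.57 for Ndfip2. Centring on the median probe gave the largest falls of these scalings, −0.84 and −0.84 for Ndfip1 and −0.90 and −0.96 for Ndfip2. All of these passed the limma test (adjusted p 0.00345 to 0.0108) and none changed sign.

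Rank within the array needs no scaling. The Ndfip1 signal exceeded that of 95.2% to 95.3% of tested probes on control arrays, of 93.0% to 93.6% on CS arrays and of 93.0% to 94.1% on PM2.5 arrays. For Ndfip2 the shares were 92.3% to 92.6% on control, 89.2% to 89.9% on CS and 88.5% to 91.0% on PM2.5 arrays. For each gene the control ranks stood above all exposed ranks.

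**Figure D2:**
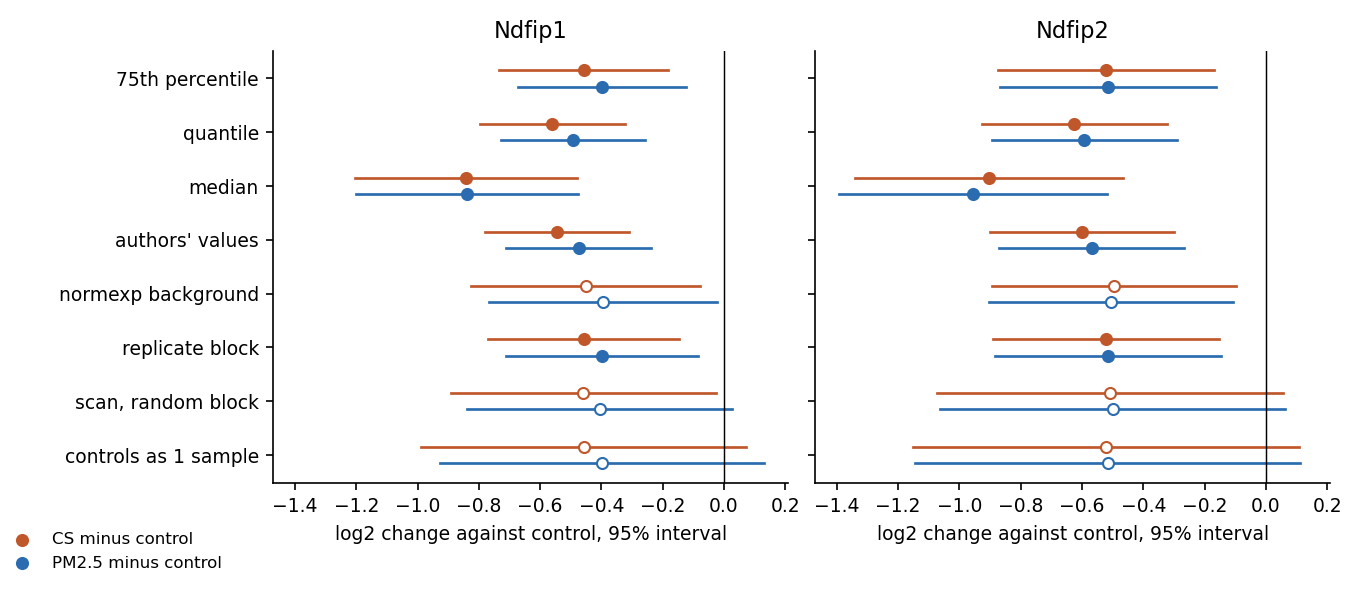
Log2 change of Ndfip1 (left) and Ndfip2 (right) against control under 8 processing choices, with 95% intervals; filled points passed the limma test at an adjusted p of 0.05 and open points did not. Every point is below 0, and the open points belong to normexp background correction, scan as a random block and the controls counted as 1 sample.

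The direction held in every setting tried, but not the calls. With normexp background correction the limma adjusted p was 0.132 to 0.219 over the 2 genes and 2 exposures. With the scan as a random block, the changes were −0.46 and −0.41 for Ndfip1 in CS and PM2.5 and −0.51 and −0.50 for Ndfip2. The main fit pools 1 spread over the groups, although the median SD of a probe was 0.08 in control, 0.22 in CS and 0.27 in PM2.5. When the mean of the 3 control arrays stood as a single sample, assumed to vary like the exposed arrays, limma adjusted p was 0.212 to 0.257. Over both exposures the calls were lost under the same settings (adjusted p 0.0732 to 0.199). Without control 1, 2 or 3, neither gene was called in CS or PM2.5 (adjusted p 0.0506 to 0.0832), except Ndfip2 in PM2.5 without control 3 (adjusted p = 0.0435). Without PM2.5 2, the lowest PM2.5 array, the PM2.5 changes were −0.31 for Ndfip1 and −0.35 for Ndfip2. Ndfip2 in CS was also not called without CS 1 (adjusted p = 0.0509) or without CS 3 (adjusted p = 0.0603).

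Among all probes the 2 genes sit in the lower tail without being extreme. In CS, 7.98% of probes changed further down than Ndfip1 and 6.91% further than Ndfip2, and in PM2.5 the shares were 10.2% and 7.83%. The fall of bright probes was more common than that of dim ones. Of the 9411 brightest probes by mean level, which include both genes, 17.3% were called lower in CS and 20.2% in PM2.5, against 1.15% and 1.51% of the 9410 dimmest. With quantile normalization the gap was smaller, at 19.3% against 5.43% in CS and 21.1% against 7.23% in PM2.5. Bright probes were then also called higher more often, at 24.3% against 3.19% in CS and 24.7% against 5.43% in PM2.5. Among those brightest probes 15.8% of probes lay below Ndfip1 and 13.7% below Ndfip2 in CS, and 20.1% and 15.5% in PM2.5. For the 2 genes' places among the brightest probes, quantile normalization gave 14.1% and 12.3% in CS and 17.7% and 14.2% in PM2.5. Among the other 27 named genes, 8 were called lower and 8 higher in CS, and 12 lower and 6 higher in PM2.5. Of these 27 genes, 7 in CS and 12 in PM2.5 changed further down than Ndfip1, and 6 and 11 further than Ndfip2. The 2 genes thus stood less far into the lower tail among the named genes than among all probes. Only 50 of the 38804 probes are catalogue probes, so the share over all probes mainly describes probes of other kinds, most with 1 spot.

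**Figure D3:**
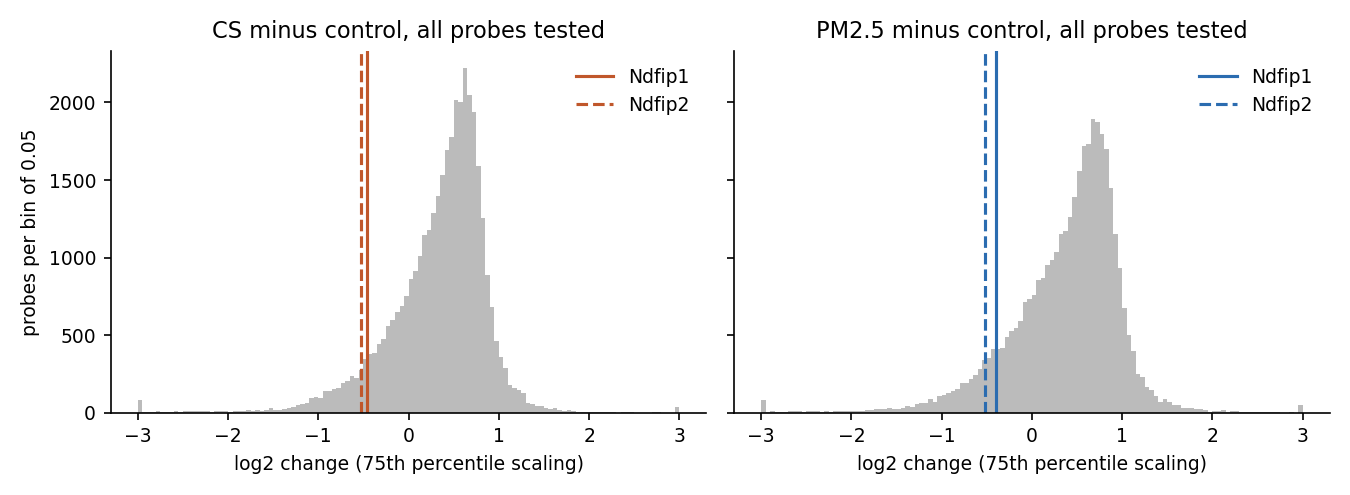
Number of probes by log2 change against control for CS (left) and PM2.5 (right), after 75th percentile scaling, with changes beyond 3 in the end bins; lines mark Ndfip1 (solid) and Ndfip2 (dashed). Both lines lie left of the peak, with 6.91% to 10.2% of probes further to the left.

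The last comparison asked whether smoke and particles differed from each other in these genes, which also tests the difference between their effects. Ndfip1 differed by −0.06 (CS minus PM2.5, SE 0.12, 95% interval −0.34 to 0.21, limma adjusted p = 0.912) and Ndfip2 by −0.01 (SE 0.16, 95% interval −0.36 to 0.35, limma adjusted p = 0.995). The arrays of the 2 exposures overlapped for each gene, and 5.91% of all probes were called. On the scan that held 2 arrays of each exposure the differences were −0.04 and −0.01 (limma adjusted p = 0.914 and 0.983). The sign was not settled: Ndfip2 differed by 0.052 after centring on the median and 0.010 with normexp, and without PM2.5 1 the difference was 0.027 for Ndfip1 and 0.13 for Ndfip2.

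Whether the 2 adaptors changed by different amounts was asked within arrays, where any constant of the array cancels. The log2 difference Ndfip1 minus Ndfip2 was 0.72, 0.68 and 0.81 on control arrays, 0.72, 0.83 and 0.86 on CS arrays and 0.75, 1.00 and 0.82 on PM2.5 arrays. The groups overlapped. The mean was 0.74 ± 0.07 in control lungs, 0.80 ± 0.07 in CS lungs and 0.86 ± 0.13 in PM2.5 lungs (SD, n = 3 each), and only their differences between groups are read here, because the probes' own brightness sets the level. Against control the shift was 0.06 in CS (95% interval −0.12 to 0.25, exact permutation p = 0.30) and 0.12 in PM2.5 (−0.07 to 0.30, exact permutation p = 0.20). Over the 6 exposed arrays it was 0.09 (−0.07 to 0.25, exact permutation p = 0.143). A difference between the falls was thus not detected with 3 arrays per group, and a larger fall of Ndfip2 by up to 0.30 lies within the intervals.

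**Figure D4:**
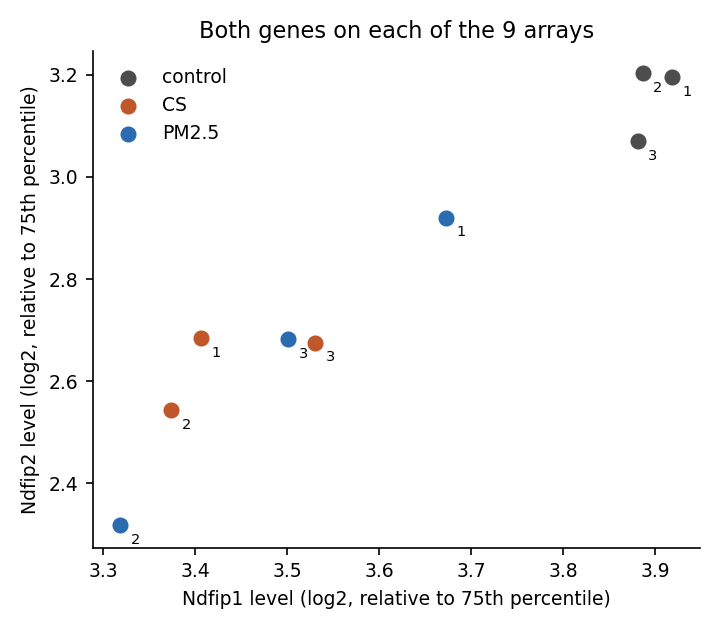
Level of Ndfip1 (x axis) and Ndfip2 (y axis) on each array, in log2 units relative to the array's 75th percentile, with replicate numbers beside the points. The 3 control arrays sit together at the upper right, and the 6 exposed arrays spread along a line below them, from PM2.5 1 to PM2.5 2.

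The genes also varied together among exposed arrays. Over the 6 exposed arrays their levels had a Pearson correlation of 0.910, given as a description without a test, since both genes were read on the same arrays with the same scaling. Of the other 27 named genes, those most like Ndfip1 over all 9 arrays with 75th percentile scaling were Pdk3, a kinase that inactivates pyruvate dehydrogenase, Pld1, a phospholipase D, and Mex3c, an RNA-binding ubiquitin ligase. Their correlations with Ndfip1 were 0.965, 0.958 and 0.955 over the 9 arrays and 0.803, 0.945 and 0.856 over the 6 exposed arrays. Most like Ndfip2 were Pld1, Pdk3 and Cdh2, which encodes N-cadherin, at 0.981, 0.938 and 0.933 over 9 arrays and 0.975, 0.802 and 0.790 over the exposed arrays. The order depended on the scaling and the arrays, as a few genes chosen after their values were seen show. With quantile values Map2 (0.949) and Mex3c (0.948) came next to Pdk3 (0.974) for Ndfip1, ahead of Pld1 (0.915). For Ndfip2 with quantile values, Mex3c (0.947) and Map2 (0.932) were among several genes that stood above Cdh2 (0.901). With 75th percentile scaling Map2 had a correlation of −0.63 with Ndfip2. Over the exposed arrays alone Cse1l had the highest correlation with Ndfip2 (0.978). The control and exposed arrays form separate clusters for these genes, so the values over 9 arrays carry the gap between clusters, and the 9 arrays also share scan and brightness differences.

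Other genes of the pathway were sought from lists of Nedd4-family ligases, other adaptors and regulators, conjugating enzymes, substrates and endosomal sorting proteins. Of their 65 entries besides Ndfip1 and Ndfip2, 0 have a named probe, so no ligase or substrate could be set beside the adaptors. Of 14 other ubiquitin ligases, 2 have one. Mex3c fell in CS by 0.91 (SE 0.16, limma adjusted p = 0.00376) and in PM2.5 by 0.53 (SE 0.16, adjusted p = 0.0216). Trim2, a neuronal RING-type ligase, changed by −0.20 in CS (adjusted p = 0.316), which did not pass, and fell by 0.51 in PM2.5 (SE 0.16, adjusted p = 0.0268).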

How the data were processed

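Whole-lung RNA was labelled with the Agilent Quick Amp kit (per the labels) and hybridised to 1-colour arrays. Images were read by Feature Extraction 11.0.1.1, as the file headers state. The deposited scanner files hold intensity on a linear scale, background subtracted within each array and not normalized between arrays, per the file headers. The other deposited values used are flags of 0 or 1 for detection, saturation and outliers. The authors' normalized table holds log2 values whose columns have nearly equal medians, with scaling steps that are not given in the sources used here. It correlated with the log2 signal at 0.997 to 0.999 per array, with column medians of 6.03 to 6.04.

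Outlier spots were left out, log2 signals of a probe's spots averaged, and each array's 75th percentile over non-control spots subtracted. A probe entered the fit (37643 did) if some group's 3 arrays all had it well above background (942 probes left out) and every array had an unflagged spot of it (219 left out), made with lmFit and eBayes of limma 3.58.1 (R 4.3.3) with 1 mean per group over the 9 arrays, two-sided. The threshold was a Benjamini-Hochberg adjusted p of 0.05. Intervals are 95%; those of within-array differences pool the spread within groups. The fitting code was first run on simulated arrays with known changes, the same spread in every group and no scan effect. That run did not test the unequal spread or the scans of the real arrays. Arrays with the same scan identifier in the headers count as 1 scan.

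Members, lists and alternatives were chosen with earlier results of these data known. Genes named are the 2 members, the 3 named genes most correlated with each over 9 arrays, and list members with a named probe. Map2 and Cse1l were named in addition, after their values were seen. The array header names genome build rn4, so only RefSeq's promoter windows carry coordinates. Probe and protein sequences were not used here. The labels call the samples biological replicates. Same-numbered arrays of different groups had deviations from their group means correlated at −0.45 to 0.18, and differently numbered ones at −0.61 to 0.59. With 3 arrays per group these correlations cannot decide whether the numbers pair arrays. The labels give no pairing, so the main fit used none. The number of arrays limits the precision.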

Additional observations from a re-analysis of the deposited data

How the results depend on the processing

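Both genes kept a negative sign against control under every alternative run. In CS, PM2.5 and over both exposures, Ndfip1 did not pass with normexp (−0.45, −0.39, −0.42), with scan as a random block (−0.46, −0.41, −0.43), with the controls as 1 sample (−0.46, −0.40, −0.43), or with quantile normalization added to that, chosen after seeing the data (−0.56, −0.49, −0.53). Ndfip2 did not pass with the same 4 (−0.50, −0.51, −0.50; −0.51, −0.50, −0.50; −0.52, −0.52, −0.52; −0.63, −0.59, −0.61). Averaging the controls leaves fewer samples; the cause was otherwise not tested. Leaving out 1 array gave −0.50 to −0.43 (Ndfip1, CS), −0.49 to −0.31 (Ndfip1, PM2.5), −0.56 to −0.48 (Ndfip2, CS), −0.66 to −0.35 (Ndfip2, PM2.5), −0.47 to −0.38 and −0.59 to −0.44 (over both exposures, still passing). For CS minus PM2.5 the range was −0.15 to 0.027 (Ndfip1, above 0 without PM2.5 1) and −0.17 to 0.13 (Ndfip2), and the sign of Ndfip2 turned with median centring (0.052), normexp (0.010) and the median of spots (0.040). Ndfip1 minus Ndfip2 between exposures ranged from −0.11 to 0.017 (without PM2.5 2) when 1 array was left out.

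Probes called numbered 17865 in CS, 21416 in PM2.5, 23576 over both and 2226 for CS minus PM2.5. Against control, in that order, quantile normalization gave 9289, 11177 and 12092, median centring 9094, 12524 and 13432, normexp 2387, 3034 and 3608, the authors' values 9326, 11229 and 12164, scan as a random block 2299, 7777 and 5413, controls as 1 sample 165, 1465 and 489, and with quantile normalization too 547, 2277 and 1480. CS minus PM2.5 gave 512 with normexp, 630 with controls as 1 sample or without controls, 389 on the shared scan and 1316 with quantile normalization and controls as 1 sample. Leaving out 1 array gave 8204 to 22027, 13467 to 24988, 14980 to 26575 and 1347 to 2584; counts moved by over 1.5 times without control 1, 2 or 3, CS 1 or CS 3 in CS, control 1 or 2 in PM2.5, control 1 over both, and control 1, 2 or 3 or CS 1 between exposures. The replicate block pairs arrays by replicate number, which in CS and PM2.5 also goes with the days to archiving. With the replicate block the counts were 12712, 17741, 20520 and 1240, and both genes kept their calls (−0.46 and −0.40, −0.52 and −0.52).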
